A study of Mus musculus with 3 samples.

Results

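The genes described here are 10 genes of T cell commitment, *Cd3e*, *Cd3g*, *Cd3d*, *Lck*, *Rag1*, *Rag2*, *Ptcra*, *Bcl11b*, *Gata3* and *Runx3*, measured in the hematopoietic cells of embryonic mouse thymic lobes. All 10 were among the 27998 genes counted. They were read in cells with at least 1 unique molecular identifier (UMI, which marks 1 captured RNA molecule) of *Ptprc*, the gene of the pan-leukocyte surface protein CD45. Of 19583 cells with at least 200 genes, at least 2000 UMIs and under 20% mitochondrial UMIs, 2180 carried *Ptprc*. These were then grouped by whether they had a *Cd3g* UMI, which 1025 had and 1155 did not. The lobes came from C57BL/6 embryos at E13 to E13.5, as 1 droplet library (10x Genomics, 3′ counting) for each of 3 genotypes. The control was wild type (Tbx1+/+). Tbx1neo2/neo2 embryos are homozygous for a neomycin cassette in an intron of *Tbx1*, a model of the thymic hypoplasia of 22q11.2 deletion syndrome. Foxn11089/1089 embryos are homozygous for a small deletion in *Foxn1*, the transcription factor of thymic epithelium, and served as a second kind of hypoplastic thymus. Both alleles are carried by every cell of the embryo, and how many embryos were pooled per library is not given in the sources used here. With 1 library per genotype there is no replicate check and no test between genotypes, and every interval below is an exact 95% interval that covers counting error only.

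T cell commitment begins when blood-borne progenitors enter the thymus and receive Notch signals from its epithelium. Progenitors first express *Tcf7* and *Gata3*, then *Bcl11b*, which closes off the other lineages, and then the parts of the pre-T cell receptor. The recombinase proteins RAG1 and RAG2 cut the receptor gene segments, the pre-T alpha chain encoded by *Ptcra* pairs with a new beta chain, and CD3 gamma, delta and epsilon carry the complex and its signal. The kinase LCK passes that signal on. RUNX3 acts later in CD8 T cells and is also used by innate lymphoid cells and by gamma delta T cells of the fetal thymus.

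The promoters of the CD3 genes, *Rag1* and *Ptcra* are shown as a selection. *Cd3g* grouped the cells. The others are among the members called lower in the *Cd3g*-positive cells of the Foxn11089/1089 library than in those of the control. *Rag2* and *Bcl11b* were also called lower there, and their promoters are not printed. The CD3 genes lie together on chromosome 9 (GRCm38, GENCODE), with *Cd3g* at chr9:44969572-44980431 on the minus strand, *Cd3d* at chr9:44981786-44987339 on the plus strand and *Cd3e* at chr9:44998740-45009627 on the minus strand. The starts of *Cd3g* and *Cd3d* are 1355 bp apart and point away from each other. *Rag1* (chr2:101638282-101649501, minus) and *Rag2* (chr2:101624718-101632529, plus) face each other, with 5753 bp between their ends. *Ptcra* lies at chr17:46755663-46763712 (minus), *Lck* at chr4:129548344-129573641 (minus), *Runx3* at chr4:135120652-135177990 (plus), *Bcl11b* at chr12:107910403-108003602 (minus) and *Gata3* at chr2:9857078-9890034 (minus). Each sequence is the 250 bases before a start listed by RefSeq (GRCm38.p6), 5′ to 3′ on the gene's strand, and capitals mark matches to the motifs searched on both strands. The E-box, bound by factors of the E2A and HEB kind, was searched as CANNTG. The motif of RUNX proteins was searched as TGTGGT and also in the variant spelling TGCGGT. The motif of GATA factors was searched as AGATAA and also in the variant spelling AGATAG. The motif of TCF1 and LEF1 was searched as CTTTGA.
Cd3g, chr9:44980432-44980681, minus strand: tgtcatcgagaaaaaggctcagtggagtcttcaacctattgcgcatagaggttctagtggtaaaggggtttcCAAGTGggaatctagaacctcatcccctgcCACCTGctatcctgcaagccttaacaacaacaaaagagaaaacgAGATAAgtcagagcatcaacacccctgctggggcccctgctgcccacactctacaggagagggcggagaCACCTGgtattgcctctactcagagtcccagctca
Cd3d, chr9:44981536-44981785, plus strand: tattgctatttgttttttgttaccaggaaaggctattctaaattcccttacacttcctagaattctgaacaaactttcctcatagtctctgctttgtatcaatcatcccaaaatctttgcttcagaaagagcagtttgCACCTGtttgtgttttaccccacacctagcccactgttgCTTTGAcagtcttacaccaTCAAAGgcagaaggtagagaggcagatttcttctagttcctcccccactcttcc
Cd3e, chr9:45009612-45009861, minus strand: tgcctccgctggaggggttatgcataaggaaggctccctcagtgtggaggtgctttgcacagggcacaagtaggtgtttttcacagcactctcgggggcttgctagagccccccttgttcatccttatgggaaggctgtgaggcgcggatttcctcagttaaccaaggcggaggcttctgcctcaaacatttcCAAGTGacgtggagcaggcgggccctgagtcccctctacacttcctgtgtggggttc
Rag1, chr2:101649533-101649782, minus strand: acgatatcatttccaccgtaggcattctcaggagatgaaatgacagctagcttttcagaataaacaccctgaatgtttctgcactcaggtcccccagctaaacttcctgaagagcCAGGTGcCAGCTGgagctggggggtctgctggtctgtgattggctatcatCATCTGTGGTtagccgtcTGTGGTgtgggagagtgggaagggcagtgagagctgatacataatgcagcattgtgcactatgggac
Ptcra, chr17:46763713-46763962, minus strand: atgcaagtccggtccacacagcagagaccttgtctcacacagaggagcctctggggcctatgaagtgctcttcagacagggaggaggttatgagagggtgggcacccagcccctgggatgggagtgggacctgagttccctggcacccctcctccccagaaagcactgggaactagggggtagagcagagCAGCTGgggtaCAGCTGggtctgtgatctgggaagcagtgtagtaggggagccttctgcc
The *Cd3g* window held 3 E-boxes and 1 GATA match, *Cd3d* held 1 E-box and 2 TCF matches, and *Cd3e* held 1 E-box. The *Rag1* window held 3 E-boxes and 2 RUNX matches, with 1 E-box overlapping a RUNX match, and *Ptcra* held 2 E-boxes. Among windows not printed, *Rag2* held 1 E-box, and *Bcl11b* held 0 E-boxes and 1 TCF match. Of 32851 promoter windows of the same length, 66.22% held an E-box, 18.59% a RUNX match, 16.54% a GATA match and 13.83% a TCF match. A match of letters is a description of the window and not of a bound site.

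The 3 libraries differed in depth and in cell content. *Ptprc*-positive cells numbered 1190 of 5320 control cells (22.4%, 21.3 to 23.5%), 450 of 3954 cells of the library labelled Tbx1neo2/neo2 (11.4%, 10.4 to 12.4%) and 540 of 10309 cells of the Foxn11089/1089 library (5.24%, 4.82 to 5.69%), with median depths of 20683, 60113 and 30202 UMIs. *Tbx1* RNA did not mark the library labelled Tbx1neo2/neo2 by a low level, standing at 4.79 CPM (UMIs of a gene per 1000000 UMIs of the cells summed) over all its cells. It stood at 1.40 CPM in the control and 5.44 CPM in the Foxn11089/1089 library, so the control was the lowest. The Tbx1neo2/neo2 genotype is therefore given below as a label. The small deletion in *Foxn1* need not change a count of its RNA, and *Foxn1* stood at 76.7 CPM in the Foxn11089/1089 library against 38.4 CPM in the control. At least 3 of 8 other hematopoietic markers were found in 98.9%, 91.8% and 93.1% of the *Ptprc*-positive cells of the control, Tbx1neo2/neo2-labelled and Foxn11089/1089 libraries. Pairs of libraries shared 17 to 28 barcodes, of which 7, 5 and 1 fell among the *Ptprc*-positive cells of the control, Tbx1neo2/neo2-labelled and Foxn11089/1089 libraries, and leaving these out changed no value by more than its counting interval.

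*Cd3g*, the CD3 gamma chain used to group the cells, was found in 648 of the 1190 *Ptprc*-positive control cells (54.5%, 51.6 to 57.3%), 261 of 450 cells of the library labelled Tbx1neo2/neo2 (58.0%, 53.3 to 62.6%) and 116 of 540 cells of the Foxn11089/1089 library (21.5%, 18.1 to 25.2%). With each cell thinned to 2000 UMIs, the shares were 36.2% (33.5 to 39.0%), 30% (25.8 to 34.5%) and 7.59% (5.50 to 10.2%). The Foxn11089/1089 share was 0.210 times the control share at that depth (0.148 to 0.289), while the Tbx1neo2/neo2-labelled share was 0.828 times (0.678 to 1.01), an interval that reaches equal shares. At 10000 UMIs the ratios were 0.315 and 0.921, so the size of the *Foxn1* mutant difference depended on the depth at which a cell was called. Red cells, which should lack *Cd3g*, gave a free-RNA share of 0.606% (2 of 330 cells), 0 of 354 cells, which allows up to 0.847%, and 0.0492% (1 of 2033 cells) at 2000 UMIs, with median depths of 8736, 18652 and 12532 UMIs. *Epcam*-positive cells without *Ptprc* gave *Cd3g* shares of 1.64% (35 of 2133 cells), 0.0985% (1 of 1015 cells) and 0 of 4722 cells at 2000 UMIs. The last allows up to 0.0635%. The *Cd3g* shares of *Ptprc*-positive cells lay above those of both kinds of cells in every library. Cells with at least 2 macrophage or dendritic markers made up 6.55%, 13.1% and 29.1% of the *Ptprc*-positive cells, and without them the *Foxn1* mutant ratio was 0.274. Without cells holding at least 2 innate lymphoid markers it was 0.0889 (0.0401 to 0.172), a setting added after the data had been seen. The *Cd3g*-positive cells also differed in how much *Cd3g* they held, with medians of 13, 31 and 4 UMIs per cell, and 31 of the 116 *Foxn1* mutant cells had a single *Cd3g* UMI.

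Within each library, *Cd3e*, *Cd3d*, *Rag1*, *Bcl11b* and *Gata3* were called higher in *Cd3g*-positive than in *Cd3g*-negative cells. *Ptcra* and *Rag2* were called higher in the control and the library labelled Tbx1neo2/neo2, and *Lck* in that library and the Foxn11089/1089 library. *Cd3e*, the CD3 epsilon chain, stood at 73.1 CPM in *Cd3g*-positive and 0.669 CPM in *Cd3g*-negative control cells, at 78.8 and 0.889 CPM in the library labelled Tbx1neo2/neo2 and at 7.23 and 0.0705 CPM in the Foxn11089/1089 library. Its log2 ratio between the cell groups was 6.77 (5.73 to 8.09), 6.47 (5.54 to 7.60) and 6.68 (4.10 to 12.03), the last resting on 1 UMI in the *Cd3g*-negative cells. Nearly all *Cd3e* UMIs lay in *Cd3g*-positive cells in the 3 libraries, although its level in those cells was low in the Foxn11089/1089 library. *Cd3d*, the CD3 delta chain, stood at 127 and 1.34 CPM, 103 and 1.28 CPM, and 22.4 and 0.916 CPM in the same order, with log2 ratios of 6.57, 6.32 and 4.61.

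The recombinase genes differed from each other in pattern. *Rag1* stood at 32.1 CPM in *Cd3g*-positive and 2.20 CPM in *Cd3g*-negative control cells, a log2 ratio of 3.87, and the ratio was 4.19 in the library labelled Tbx1neo2/neo2 and 2.23 in the Foxn11089/1089 library. *Rag2* was also found outside the *Cd3g*-positive cells, with 61.5 and 20.7 CPM in the control, 61.6 and 16.0 CPM in the library labelled Tbx1neo2/neo2 and 8.16 and 6.41 CPM in the Foxn11089/1089 library. Its log2 ratios were 1.57, 1.94 and 0.35 (-0.26 to 0.92), so *Rag2* did not differ between the cell groups of the *Foxn1* mutant beyond counting error. *Ptcra*, the pre-T alpha chain, stood at 44.3 and 4.58 CPM, 36.5 and 7.31 CPM, and 3.96 and 0.705 CPM, with log2 ratios of 3.27, 2.32 and 2.49, and its 27 UMIs in the *Foxn1* mutant fell under the minimum of 30 for a call. In the *Cd3g*-negative cells of the library labelled Tbx1neo2/neo2, 66 of the 74 *Ptcra* UMIs lay in 5 cells.

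Among the remaining members, *Bcl11b*, the commitment factor, stood at 62.5 and 3.63 CPM in *Cd3g*-positive and *Cd3g*-negative control cells, at 89.9 and 6.03 CPM in the library labelled Tbx1neo2/neo2 and at 21.5 and 7.12 CPM in the Foxn11089/1089 library, with log2 ratios of 4.11, 3.90 and 1.59. *Lck* (log2 0.85, 1.39 and 1.51) and *Gata3*, which encodes a T and innate lymphoid transcription factor (1.08, 1.29 and 1.19), differed by smaller amounts, and *Runx3* by little (-0.03, 0.47 and 0.62). Taking a log2 ratio of at least 1 as the call, among genes with at least 30 UMIs, 7 of 9 members were higher in *Cd3g*-positive control cells, against 3.71% of all genes tested, and 0 were lower, against 5.2%. For the library labelled Tbx1neo2/neo2, 8 of 9 were higher, against 4.05%, and in the Foxn11089/1089 library 6 of 8, against 2.72%, with 0 members lower in either, against 17.4% and 7.71% of all genes. *Gata3* was below a log2 ratio of 1 in each library once cells with macrophage or dendritic markers were left out (0.99, 0.95 and 0.89). These cells made up 12.4%, 28.0% and 35.8% of the *Cd3g*-negative group, and their further part in the result was not tested.

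**Figure D1:**
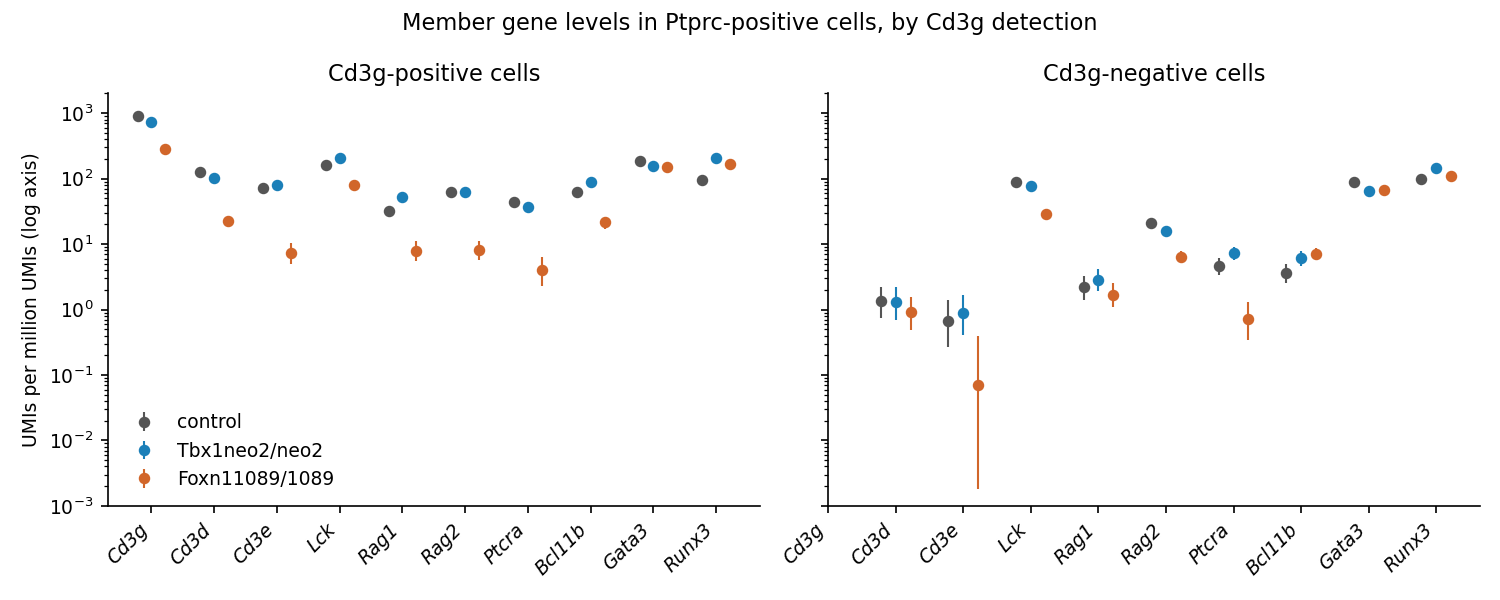
Levels of the 10 member genes in *Ptprc*-positive cells with (left) and without (right) a *Cd3g* UMI, in CPM on a log axis, for the 3 libraries (the control, the library labelled Tbx1neo2/neo2 and the Foxn11089/1089 library). Points are sums over 1 library and bars are exact 95% Poisson intervals. *Cd3g* is 0 in the right panel by construction. *Cd3e* stood at 73.1, 78.8 and 7.23 CPM on the left and under 1 CPM in each library on the right, while *Runx3* was at 95.6 to 203 CPM on the left and 97.9 to 147 CPM on the right.

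The comparison between genotypes asked whether T cell commitment transcripts reach the same level in hematopoietic cells of the hypoplastic lobes. In *Cd3g*-positive cells, 6 of the 9 other members were lower in the Foxn11089/1089 library than in the control by a log2 ratio of at least 1 and 0 were higher, against 5.38% of all genes lower and 16.2% higher. *Cd3e*, at 73.1 CPM (68.6 to 77.9) in the control and 7.23 CPM (4.91 to 10.3) in the *Foxn1* mutant, had a log2 ratio of -3.34 (-3.90 to -2.82). *Ptcra*, at 44.3 CPM (40.8 to 48.0) and 3.96 CPM (2.31 to 6.35), had a ratio of -3.48 (-4.27 to -2.79), which overlaps that of *Cd3e*. *Cd3d* (-2.51, -2.82 to -2.21), at 127 and 22.4 CPM, was the third CD3 chain and was also called lower. *Rag2*, at 61.5 and 8.16 CPM, had a log2 ratio of -2.91 (-3.45 to -2.43), and *Rag1*, at 32.1 and 7.93 CPM, one of -2.02 (-2.56 to -1.51). *Bcl11b*, at 62.5 and 21.5 CPM, was lower by less (-1.54, -1.87 to -1.23).

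The other 3 members were not called. *Lck* stood at 161 CPM in the control and 81.4 CPM in the Foxn11089/1089 library (log2 -0.98, -1.15 to -0.82). *Gata3* stood at 188 and 150 CPM (log2 -0.33, -0.45 to -0.20), the nearest of the members to its control level. *Runx3* was the member that pointed the other way, at 95.6 and 169 CPM (log2 0.82, 0.69 to 0.95). The median of the 9 members was -2.02, beside a median of 0.29 over all genes tested, and the 9 members kept their directions when libraries were scaled by median-of-ratios size factors. That scaling moved the log2 ratio of *Lck* to -1.28.

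In the library labelled Tbx1neo2/neo2 the same members other than *Runx3* stood within a log2 ratio of 1 of their control levels. In its *Cd3g*-positive cells 1 of the 9 members was higher by a log2 ratio of at least 1 and 0 were lower, against 10.8% of all genes higher and 2.8% lower. *Runx3* was that member, at 203 CPM (197 to 210) against 95.6 CPM (90.5 to 101), a log2 ratio of 1.09 (0.995 to 1.18) that was 0.75 under median-of-ratios scaling. *Rag1* was at 52.4 CPM against 32.1 CPM (log2 0.71, 0.54 to 0.88), *Bcl11b* at 89.9 against 62.5 CPM (0.53) and *Lck* at 205 against 161 CPM (0.35). *Cd3d* (-0.31), *Ptcra* (-0.28) and *Gata3* (-0.26) lay a little below the control, and *Rag2* was level (0.00). *Cd3e*, at 78.8 against 73.1 CPM, had a log2 ratio of 0.11 (-0.01 to 0.23), which became -0.23 under median-of-ratios scaling, as *Rag2* became -0.34. The median over the 9 members was 0.11, beside 0.34 over all genes tested.

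**Figure D2:**
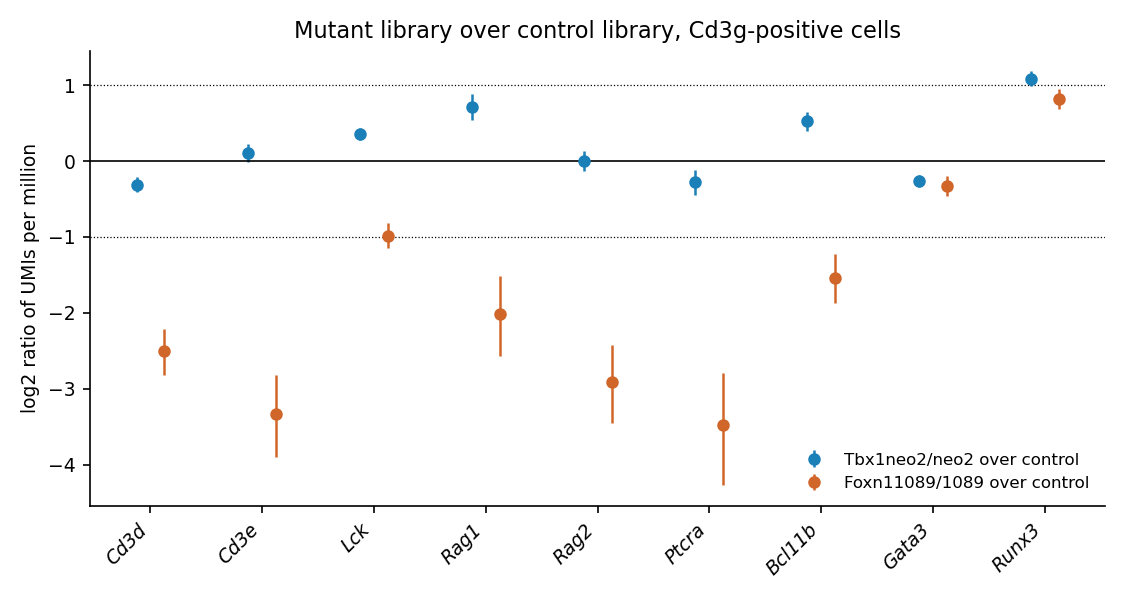
Log2 ratios of CPM in *Cd3g*-positive cells, mutant library over control library, for the 9 members other than *Cd3g*. Points are ratios of sums over 1 library each, bars are exact 95% intervals of counting error, and dotted lines mark the log2 ratio of 1 in either direction. The Foxn11089/1089 points of *Cd3e* and *Ptcra* lie at -3.34 and -3.48, and those of *Gata3* at -0.33 and *Runx3* at 0.82, while the Tbx1neo2/neo2-labelled points run from -0.31 to 1.09.

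Over all *Ptprc*-positive cells, where the share of *Cd3g*-positive cells adds to the level within them, the *Foxn1* mutant differences were larger for most members. *Cd3g* itself stood at 507 CPM in the control, 463 CPM in the library labelled Tbx1neo2/neo2 and 66.1 CPM in the Foxn11089/1089 library. There, 8 of 10 members were lower in the Foxn11089/1089 library than in the control, against 5.33% of all genes, with log2 ratios of -4.58 for *Cd3e*, -4.20 for *Ptcra*, -3.61 for *Cd3d*, -2.94 for *Cd3g*, -2.68 for *Rag2*, -2.59 for *Rag1*, -1.81 for *Bcl11b* and -1.67 for *Lck*. *Gata3* (-0.76) and *Runx3* (0.36) again differed least, and 0 members were higher, against 23.7% of all genes. In the library labelled Tbx1neo2/neo2, 0 of 10 members were called in either direction, against 20.4% of all genes higher and 2.51% lower, with log2 ratios from -0.24 for *Gata3* to 0.92 for *Runx3*.

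A sum over cells does not tell fewer cells with a transcript from fewer transcripts per cell, so the members were also counted cell by cell. In the Foxn11089/1089 library the 31 *Cd3e* UMIs of the *Cd3g*-positive cells came from 14 of 116 cells, and 10 of them from 1 cell. The 34 *Rag1* UMIs came from 10 cells, and 5 of these cells held 29. The 17 *Ptcra* UMIs came from 8 cells. In control *Cd3g*-positive cells, *Cd3e* was found in 340 of 648 cells, *Rag1* in 239 and *Ptcra* in 188, with no single cell holding more than 2.70% of the UMIs of these genes. Each UMI is a larger share of the few UMIs in the *Foxn1* mutant, so the shares held by 1 cell cannot be compared between libraries. These counts were made without thinning.

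To set the libraries at 1 depth, each cell with at least 10000 UMIs was thinned to that number, a depth chosen after the data had been seen, which left out 108, 9 and 33 *Ptprc*-positive cells of the control, Tbx1neo2/neo2-labelled and Foxn11089/1089 libraries. Cells were then placed by their remaining *Cd3g* UMIs into those with 0, with 1 to 4 and with 5 or more. Among the cells with 5 or more (365 control cells, 134 of the library labelled Tbx1neo2/neo2 and 31 of the Foxn11089/1089 library), *Cd3e* was found in 54.5% (49.3 to 59.7%), 55.2% (46.4 to 63.8%) and 12.9% (3.63 to 29.8%). In this class, cells of the *Foxn1* mutant library had a lower *Cd3e* share than control cells. The class has no upper limit, so the *Cd3g* levels within it were not matched between libraries. The intervals cover counting error within 1 library each and are no test between genotypes. *Cd3d* was found in 60.0%, 58.2% and 29.0% (14.2 to 48.0%) of these cells. *Rag1* was found in 32.1%, 42.5% and 3.23%, *Ptcra* in 31.2%, 24.6% and 3.23% and *Bcl11b* in 42.7%, 53.0% and 16.1%. *Rag2* was found in 43.8% (38.7 to 49.1%) and 42.5% (34.0 to 51.4%), and in 0 of the 31 *Foxn1* mutant cells, which allows a share of up to 9.68%.

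*Gata3*, *Runx3* and *Lck* behaved differently in the same cells. *Gata3* was found in 74.8% of the control cells with 5 or more *Cd3g* UMIs, 67.2% of those labelled Tbx1neo2/neo2 and 71.0% of those of the Foxn11089/1089 library, and *Runx3* in 54.8%, 80.6% and 77.4%. *Lck* was found in 82.2%, 88.8% and 61.3% (42.2 to 78.2%). The share of cells with *Gata3* was also high, at 75.1%, 68.8% and 55.8%, in cells with 1 to 4 *Cd3g* UMIs, in which *Cd3e* was found in 14.2%, 18.2% and 1.92% (1 of 52 cells). The *Gata3* share therefore reached its upper level at low *Cd3g* in the control, whereas the *Cd3e* share kept climbing. In red cells without thinning, *Cd3e* and *Rag1* were found in 0 cells of the 3 libraries, and the other members in at most 1.21% of cells. In *Epcam*-positive cells without *Ptprc*, *Bcl11b* was found without thinning in 30.1%, 59.7% and 38.5% of cells and *Gata3* in 17.3%, 15.1% and 38.6%, at median depths of 16303, 40806 and 20085 UMIs. Levels in those cells were 25.1, 42.3 and 34.4 CPM for *Bcl11b* and 28.9, 6.29 and 101 CPM for *Gata3*. The part of epithelial RNA in the *Gata3* and *Bcl11b* levels of *Cd3g*-positive cells was not tested.

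**Figure D3:**
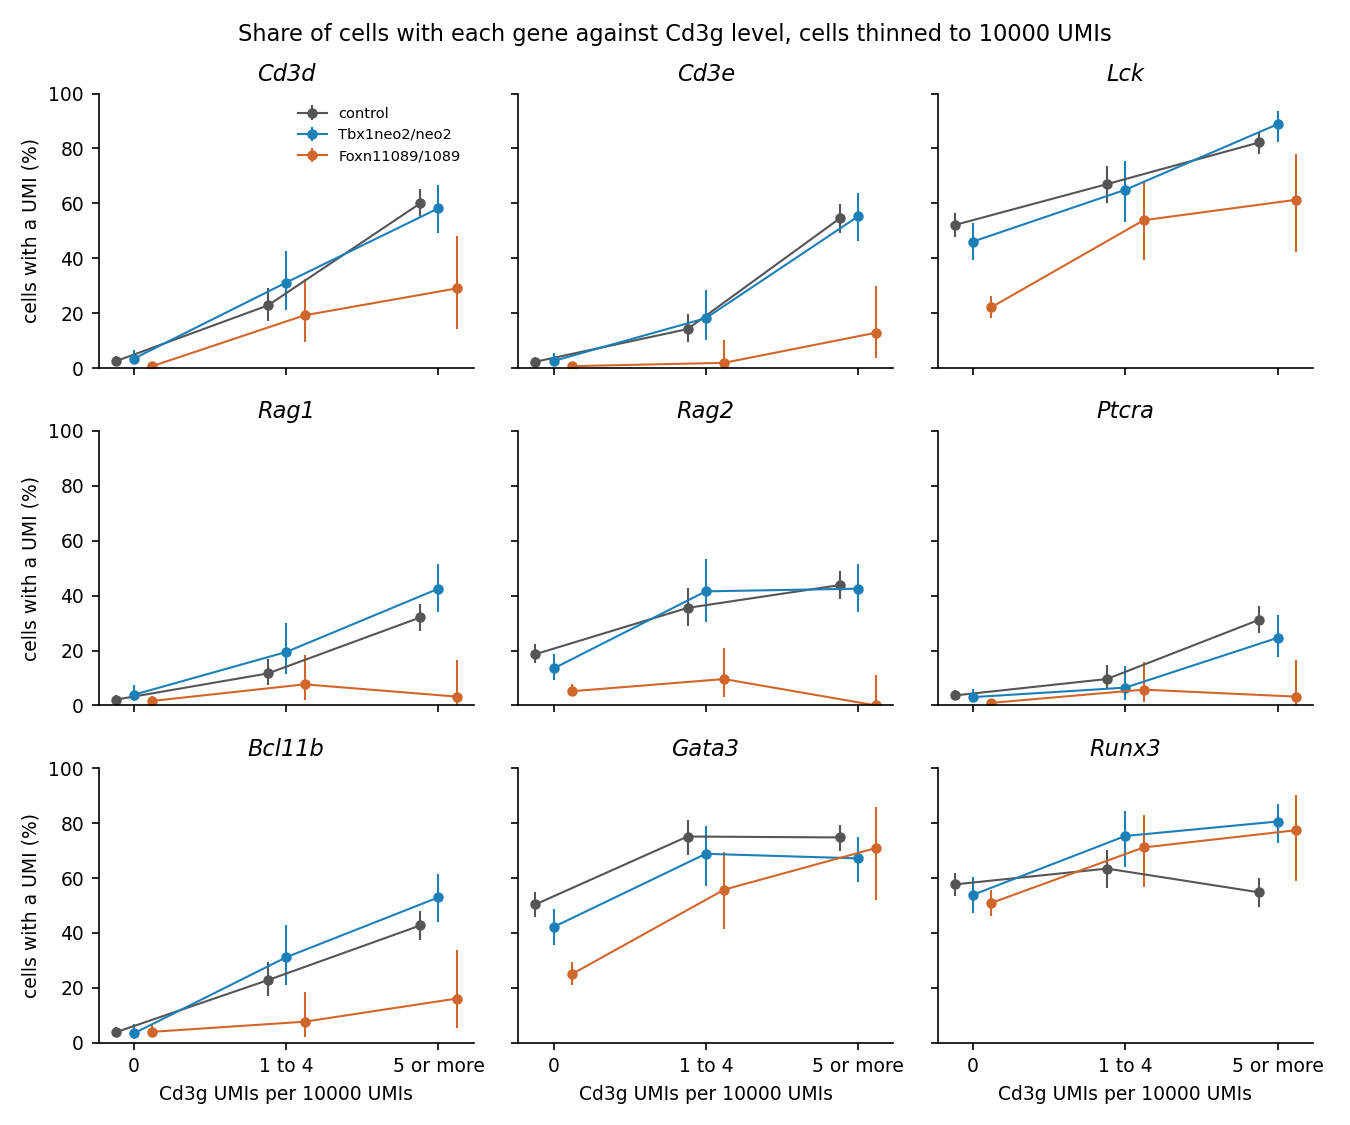
Share of *Ptprc*-positive cells with at least 1 UMI of each of 9 members against the *Cd3g* UMIs of the cell, each cell thinned to 10000 UMIs, in the 3 libraries. Bars are exact 95% binomial intervals. *Cd3e* reached 54.5%, 55.2% and 12.9% in the highest *Cd3g* class of the control, Tbx1neo2/neo2 and Foxn11089/1089 libraries, while *Gata3* reached 74.8%, 67.2% and 71.0%.

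How many members a single cell held was counted at 10000 UMIs per cell, with cells grouped by *Cd3g* before thinning. The *Cd3g*-positive cells held a median of 4 of the 9 other members in the control (607 cells), 4 in the library labelled Tbx1neo2/neo2 (261 cells) and 2 in the Foxn11089/1089 library (115 cells), where the highest number in any cell was 5. Of 6 members chosen after their values were seen, *Cd3d*, *Cd3e*, *Rag1*, *Rag2*, *Ptcra* and *Bcl11b*, at least 3 were found in 36.6% (32.7 to 40.5%), 33.0% (27.3 to 39.0%) and 1.74% (0.211 to 6.14%, 2 cells) of *Cd3g*-positive cells. None of the 6 was found in 21.3%, 24.1% and 60.9%. The 6 are the members called lower in the Foxn11089/1089 library, so their lower counts per cell there restate those levels. Taking instead the cells that still held *Cd3g* after thinning (562, 211 and 83), at least 3 of the 6 were found in 39.1%, 39.3% and 2.41%, and none in 19.2%, 18.5% and 54.2%. Of the cells with *Cd3e*, 227 of 239 in the control, 88 of 94 in the library labelled Tbx1neo2/neo2 and 5 of 8 in the Foxn11089/1089 library also held *Cd3g*. The reverse share, of the cells that still held *Cd3g* after thinning, was 40.4%, 41.7% and 6.02% with *Cd3e*.

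**Figure D4:**
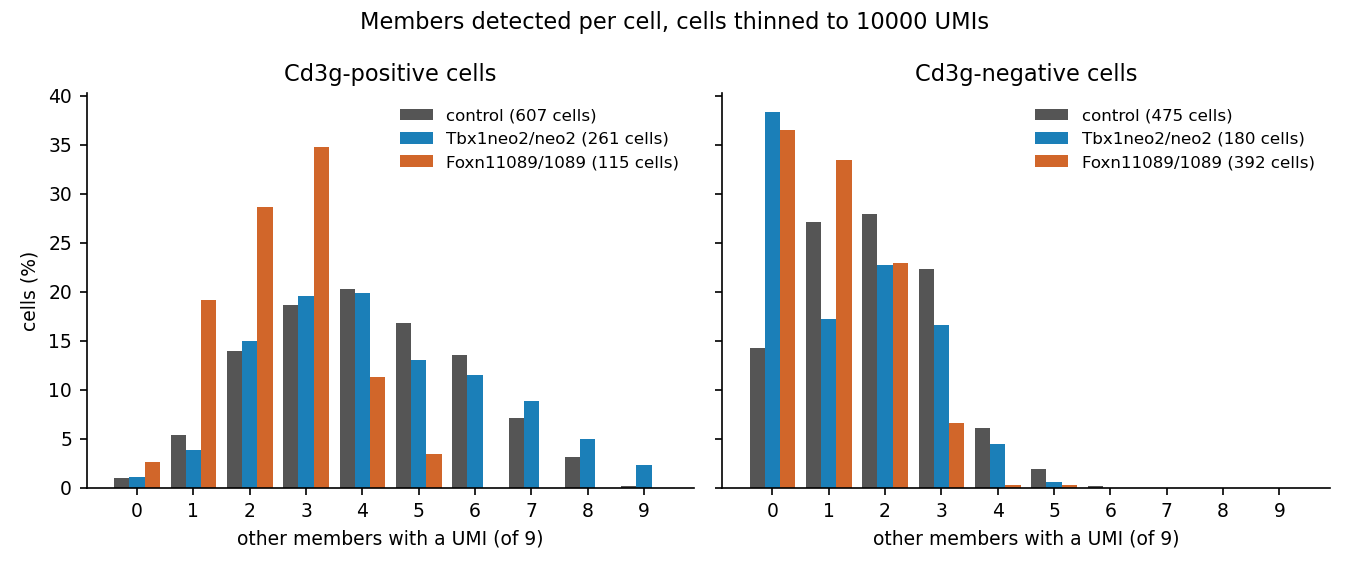
Number of the 9 other members with a UMI per cell, as a share of *Cd3g*-positive (left) and *Cd3g*-negative (right) cells, each thinned to 10000 UMIs, in the 3 libraries. *Cd3g*-positive cells held a median of 4 members in the control and Tbx1neo2/neo2 libraries and 2 in the Foxn11089/1089 library, in which no cell held more than 5.

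Genes of the T cell receptor signalling list were called in both directions in the *Foxn1* mutant. Of 19 signalling and T cell surface genes, 13 had enough UMIs in *Cd3g*-positive cells, of which 5 were lower, beside 5.38% of all genes, and 3 higher, beside 16.2%, in the Foxn11089/1089 library, with a median log2 ratio of 0.11 beside 0.29 over all genes. *Lat*, the adaptor that links the receptor to its downstream enzymes, was at -3.16, *Cd247*, the zeta chain of the receptor, at -2.08 and *Thy1*, a T lineage surface protein, at -2.01, while *Zap70* (1.34), the kinase that binds the zeta chain, *Lcp2* (1.03) and *Ptpn22* (1.48) were higher. In the library labelled Tbx1neo2/neo2, 0 of 15 genes of this list were called, beside 10.8% of all genes higher and 2.8% lower, with a median of 0.59 beside 0.34 over all genes. Of 9 genes of the Notch response and of the stages before the pre-T cell receptor checkpoint, 8 had enough UMIs, and 4 were lower and 0 higher in the *Foxn1* mutant, beside the same 5.38% and 16.2% of all genes, with a median of -0.94. *Dtx1* (-2.22) and *Nrarp* (-1.63), which are Notch targets, *Notch3* (-1.36) and *Il2ra* (-1.24), the CD25 marker, were the 4, whereas the Notch target *Hes1* was at -0.22 and *Dntt* had no UMI in either library. Among cells labelled Tbx1neo2/neo2, 0 of the 8 were called, beside 10.8% of all genes higher and 2.8% lower. Their median there was 0.64, beside 0.34 over all genes, and the ratios ran from 0.35 for *Notch3* to 0.94 for *Notch1*.

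The median of the T lineage transcription factors lay near 0 in the *Foxn1* mutant. Among the factors reported here, *Lef1* (-1.38) and *Sox13* (-1.14) were lower in *Cd3g*-positive cells of the Foxn11089/1089 library, beside 5.38% of all genes. *Tox* (1.47) was higher, beside 16.2% of all genes. The *Sox13* ratio (-2.34 to -0.13) rests on 9 UMIs in the *Foxn1* mutant. The median over the list of 13 was 0.10, beside 0.29 over all genes. *Tcf7*, which acts at the entry to the lineage, was at -0.17. Among cells labelled Tbx1neo2/neo2, *Ikzf1* stood at 1.01, a call that median-of-ratios scaling took to 0.67, and 0 factors were called lower. Of all genes, 10.8% were higher and 2.8% lower there. The median of the factors was 0.51, beside 0.34 over all genes. Of 15 progenitor genes, 14 had enough UMIs, and in the *Foxn1* mutant 4 were higher, among them *Mef2c* (2.60) and *Meis1* (2.04), and 2 were lower, *Erg* (-1.46) and *Lyl1* (-1.25), beside 16.2% of all genes higher and 5.38% lower, with a median of 0.50. *Il7r*, the interleukin 7 receptor of early lymphoid cells, was level (0.03), and *Kit*, the stem cell factor receptor, was at -0.39. The library labelled Tbx1neo2/neo2 had 2 progenitor genes higher, *Cd44* (1.43) and *Meis1* (1.19), and 0 lower, beside 10.8% and 2.8% of all genes, with a median of 0.62.

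Most markers of innate lymphoid cells were higher in the *Foxn1* mutant, where most members were lower. Their summed level in *Cd3g*-positive cells was 1612 CPM in the control, 1425 CPM in the library labelled Tbx1neo2/neo2 and 2593 CPM in the Foxn11089/1089 library, and all 13 markers had UMIs in each. Of 12 with enough UMIs, 9 were higher in the *Foxn1* mutant, such as *Tbx21* (4.30), *Cxcr6* (2.95), *Id2* (2.85) and *Klrd1* (2.50), beside 16.2% of all genes. *Gzmb* was lower (-3.11), beside 5.38% of all genes. In the library labelled Tbx1neo2/neo2, 3 of 10 were also higher, *Tbx21* (2.06), *Cxcr6* (1.83) and *Id2* (1.24), beside 10.8% of all genes. There 0 were lower, beside 2.8%, and *Klrd1* was at -0.61. *Fcer1g* (524 CPM) and *Tyrobp* (448 CPM) were the highest of the list in *Cd3g*-positive control cells, and *Tyrobp* was higher, at 819 CPM, in *Cd3g*-negative ones. At 2000 UMIs per cell, at least 2 of the 13 innate lymphoid markers were found in 46.8%, 40.6% and 66.4% of *Cd3g*-positive cells. The shares of *Cd3g*-negative cells were 46.5%, 40.2% and 46.0%, near those of the *Cd3g*-positive cells in the control and the library labelled Tbx1neo2/neo2. At 10000 UMIs, at least 3 of the 13 were found in 71.6%, 67.5% and 80.8% of cells with 1 to 4 *Cd3g* UMIs. They were found in 62.2%, 59.0% and 93.5% of those with 5 or more, and in 48.5%, 30.9% and 46.9% of those with 0. In *Cd3g*-positive cells with fewer than 2 of these markers at 2000 UMIs (345, 155 and 39 cells), which at full depth can still hold them, *Cd3e* stood at 84.3, 87.2 and 10.98 CPM, *Rag1* at 38.3, 63.6 and 13.1 CPM and *Ptcra* at 62.3, 50.2 and 3.66 CPM. The members called lower in the *Foxn1* mutant had log2 ratios over the control in these cells of -2.94 for *Cd3e*, -3.47 for *Cd3d*, -1.55 for *Rag1*, -2.38 for *Rag2*, -4.09 for *Ptcra* and -1.08 for *Bcl11b*. *Lck*, which was not called above, was at -1.03. In the 39 *Foxn1* mutant cells there were 21 UMIs of *Cd3e*, 26 of *Cd3d*, 25 each of *Rag1* and *Rag2*, 7 of *Ptcra* and 61 of *Bcl11b*. The part of innate lymphoid cells in the differences was not tested.

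Markers of other cell types were also counted in the *Cd3g*-positive cells. Summed erythroid markers stood at 2941, 4441 and 15287 CPM in the control, Tbx1neo2/neo2-labelled and Foxn11089/1089 libraries, stromal markers at 129, 179 and 443 CPM, macrophage markers at 24.0, 85.1 and 112 CPM, with *C1qb* at 0 in the control, and dendritic markers at 52.7, 24.2 and 145 CPM. All 9 erythroid and 9 stromal markers had UMIs in each library. Without cells holding at least 2 stromal markers, the *Foxn1* mutant log2 ratio was -3.37 for *Cd3e*, -3.32 for *Ptcra* and -1.86 for *Rag1*, and without cells with macrophage or dendritic markers it was -3.54, -3.61 and -1.97. With mitochondrial, hemoglobin and ribosomal genes left out of the totals, 65 of 65 values of single members stayed within their counting intervals.

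**Figure D5:**
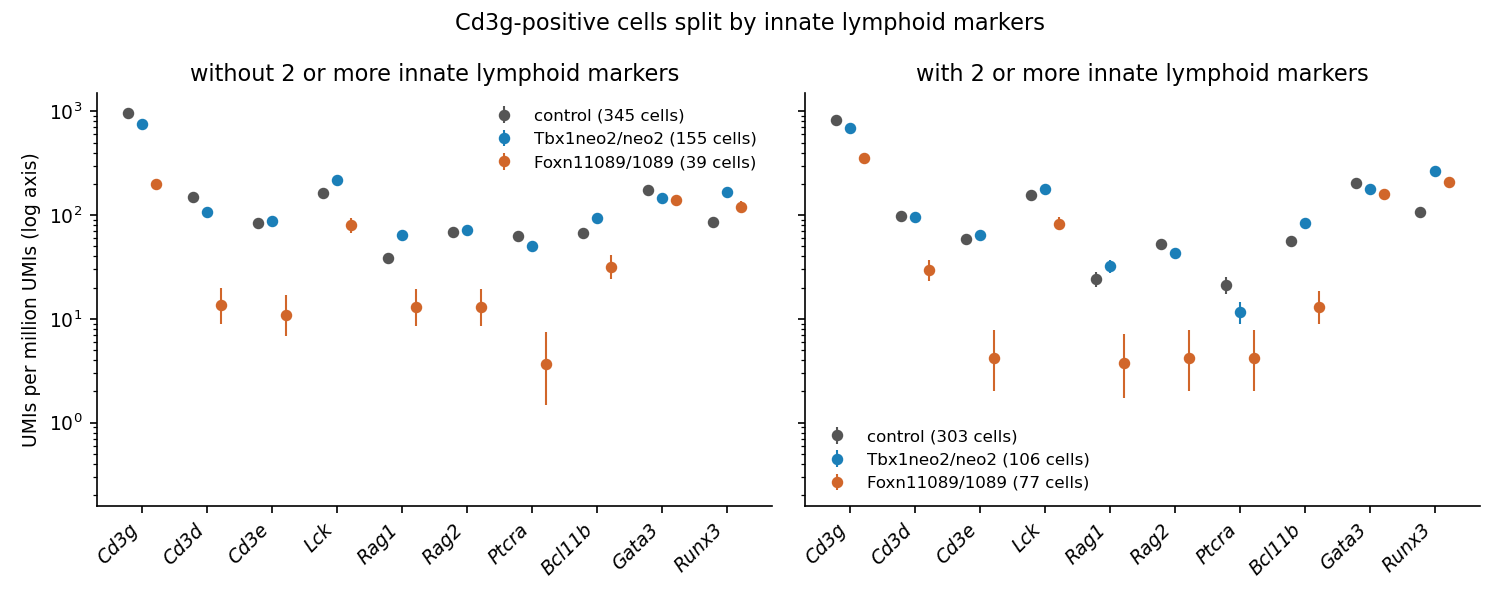
Levels of the 10 members in *Cd3g*-positive cells with fewer than 2 (left) and with at least 2 (right) innate lymphoid markers at 2000 UMIs, in CPM on a log axis, with exact 95% Poisson intervals, for the 3 libraries. *Cd3e* stood at 84.3 CPM in the control and 10.98 CPM in the Foxn11089/1089 library on the left, and at 58.7 and 4.21 CPM on the right.

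The genes whose pattern was most like that of *Cd3g* were found by the smallest log2 ratio of *Cd3g*-positive over *Cd3g*-negative cells in the 3 libraries, over 11679 genes. The 10 highest were *Cd3e* (6.47), *Gpr83* (4.78), *Cd3d* (4.61), *Gal* (4.55), *Cd163l1* (4.43), *Nlrp6* (3.99), *Cd247* (3.90), *Cxcr6* (3.73), *Gp1bb* (3.73) and *Drc1* (3.68). *Cd3e* and *Cd3d* were the 2 members among them, and 164 of the genes (1.40%) reached a ratio of 1 in all 3 libraries. *Gal*, which encodes the peptide galanin, stood at 399 CPM in *Cd3g*-positive control cells and 17.0 CPM in *Cd3g*-negative ones, 134 and 3.36 CPM in the library labelled Tbx1neo2/neo2 and 45.7 and 1.55 CPM in the Foxn11089/1089 library. *Cd163l1*, a scavenger receptor gene found in gamma delta T cells, stood at 90.8 and 4.20 CPM, 161 and 0.790 CPM, and 25.4 and 0.0705 CPM. Some of these ratios rest on few UMIs, such as *Cd247*, with 9 and 2 in the cell groups of the *Foxn1* mutant.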

How the data were processed

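Trypsin-dissociated thymic lobes were captured with 10x Genomics 3′ chemistry. The deposited values are raw UMI counts per gene and called cell, which the authors made with Cell Ranger 3.0.0 on mouse genome mm10 (Seurat is also named, per the labels). No normalization had been applied. Control, Tbx1neo2/neo2-labelled and Foxn11089/1089 libraries held 82936619, 137498422 and 204655055 UMIs in 6410, 5759 and 12447 barcodes. T cell receptor constant region genes were not analysed here. The result of 1 listed gene is not reported here.

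Here, cells with at least 200 genes, at least 2000 UMIs and under 20% mitochondrial UMIs were kept, and those with at least 1 *Ptprc* UMI were split by at least 1 *Cd3g* UMI. No doublet caller was run, and cells with markers of another cell type were left out as alternatives. UMIs were summed per library and cell group and divided by all UMIs of those cells, times 1000000 (CPM). A gene needed 30 or more UMIs in the compared groups together, and a log2 ratio of 1 or more in either direction made a call. Intervals were exact at 95% (Clopper-Pearson for shares, Poisson for sums, conditional binomial for ratios), and the limit for a count of 0 was 3 counts. UMIs within a cell are not replicates, so no test was run. Red cells were *Ptprc*-zero with at least 50% of UMIs on hemoglobin genes.

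Named genes were the 10 members, genes of the marker and pathway lists, and the 10 genes most like *Cd3g* (at least 100 UMIs, and at least 10 per library). The members and lists were chosen with earlier results of these data known. Intervals and calls were tested on simulated counts. Alternatives changed the cell filters, thinning, scaling, UMI minimum and the cells left out. Python 3.11.15, numpy 2.4.6, scipy 1.17.1, pandas 2.3.3 and matplotlib 3.10.9 were used, with GENCODE mouse release 21 coordinates and RefSeq promoters.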

Additional observations from a re-analysis of the deposited data

Results flagged for a closer look

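*Ptprc*-zero cells with at least 5 of the 8 other hematopoietic markers lay outside the comparisons above. In each library *Cd3g* was found in a larger share of them than of red cells, without thinning. In the control, 119 of 274 such cells were *Cd3g*-positive (43.4%, 37.5 to 49.5%, against a limit of 1.09%), with 208 *Cd3d* and 565 *Lck* UMIs. In the library labelled Tbx1neo2/neo2, 5 of 33 were *Cd3g*-positive (15.2%, 5.11 to 31.9%, against a limit of 9.09%), with 0 *Cd3d* UMIs. In the Foxn11089/1089 library, 3 of 37 were (8.11%, 1.70 to 21.9%). The limit is what a count of 0 allows for that number of cells and is not a background. Red cells, which should lack *Cd3g*, had a UMI of it without thinning in 4 of 330 (1.21%), 2 of 354 (0.565%) and 2 of 2033 (0.0984%). The red cells held a median of 8736, 18652 and 12532 UMIs each. The median depths of these cells were 18474, 4838 and 21513 UMIs. These 119, 5 and 3 *Cd3g*-positive cells were left out by requiring *Ptprc*.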

How the results depend on the processing

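No paired analysis was possible because each genotype has 1 library and the labels give no replicate numbers. The *Foxn1* mutant share of *Cd3g*-positive cells over the control, 0.210, was 0.289 after thinning to 5000 UMIs, 0.315 at 10000 UMIs (added after seeing the data), 0.394 without thinning and 0.0889 without innate lymphoid marker cells (also added later). The Tbx1neo2/neo2-labelled share, 0.828, was 1.07 without thinning. Median-of-ratios scaling moved the member medians over the control to -0.30 (Tbx1neo2/neo2 label, from 0.15) and -3.01 (*Foxn1* mutant, from -2.63) in *Ptprc*-positive cells and to -0.23 (Tbx1neo2/neo2 label, from 0.11) in *Cd3g*-positive cells. Grouping by *Cd3g* after thinning moved the last to 0.38. The *Foxn1* mutant median in *Cd3g*-positive cells, -2.02, lay within its counting interval under every alternative run. The control median between cell groups, 3.27, was 2.79 with at least 2 *Ptprc* UMIs, 2.62 with *Cd3g* after thinning and 4.28 without innate lymphoid marker cells. The *Foxn1* mutant one, 1.59, was 2.13 without stromal marker cells. With a minimum of 100 UMIs, the genes called higher in the *Foxn1* mutant's *Cd3g*-positive cells were 10.3%, not 16.2%. Between cell groups, those lower in the control were 2.98%, not 5.2%, and in the *Foxn1* mutant 1.71% were higher, not 2.72%, and 4.74% lower, not 7.71%. Of 805 values of single members under an alternative, 651 stayed within their counting interval, 154 moved beyond it and 0 called ones changed sign. Of 465 alternative values for 37 called ratios, 10 fell under the fold, for *Runx3* in the library labelled Tbx1neo2/neo2 over the control and, between cell groups, for *Gata3* in each library and *Lck* in that library. The causes were not tested.

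The limits are 1 library per genotype, an unknown number of embryos and median depths that differ between libraries. A *Foxn1* mutant group of 116 *Cd3g*-positive cells gave as few as 17 UMIs of a member. Detection of *Cd3g* depends on depth, so the groups are not cell types. Counting intervals hold no variation between embryos.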
